A study of Argiope bruennichi with 12 samples.

Results

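RNA counts of 3 of the 37459 genes in the count table were followed in overwintering spiderlings of the wasp spider Argiope bruennichi. The 3 genes are named for enzymes that act on membrane lipids, and neither enzyme activity nor lipid turnover was measured. They are LOC129987920, LOC129964053 and LOC129984733, which the study names lysophospholipid acyltransferase, phospholipase A2 and diacylglycerol kinase 1. They were selected on their differences in counts between the winter regimes in these same libraries. Their levels and fold-changes are therefore given as a description and without a test. All 3 genes passed the filter on low counts, as did 14057 genes in all.

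Each library was made from a pool of 15 whole spiderlings of the first instar, kept inside their egg sacs for 3 months in a climate cabinet, and 4 pools were sequenced per regime. The warm regime had days at 15°C and nights at -5°C, the cold regime days at 5°C and nights at -15°C, and the moderate regime, which the study used as its control, days at 5°C and nights at -5°C. Warm and moderate thus differed in the temperature of the day, and cold and moderate in that of the night. The swing between day and night was also wider in warm and in cold than in moderate. The temperature of the day or night and the size of the swing therefore cannot be told apart in these comparisons. The mothers came from a single northern population and were housed under shared conditions until they laid their eggs. Each regime was run apart in climate cabinets, the cold one in another make than the others, so an effect of the regime and an effect of the cabinet cannot be told apart. Which mothers the pools of a regime descend from is not given in the sources used here, so the spread between pools may be partly technical or familial.

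Phospholipids carry acyl chains whose length and number of double bonds set how fluid a membrane is, and animals that live at varying temperatures are known to exchange these chains. In this exchange a phospholipase A2 cuts an acyl chain off a phospholipid, which leaves a lysophospholipid and a free fatty acid. A lysophospholipid acyltransferase then puts a new chain on the lysophospholipid. Diacylglycerol kinases act elsewhere in the pathway: they phosphorylate diacylglycerol, a membrane lipid and second messenger, to phosphatidic acid, from which other phospholipids are made. These roles are known from other animals. The names of these spider genes are those given by the study, and they were not checked here against a protein sequence.

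The total counts per pool ranged from 14062208 to 14705182 in the warm regime, from 13407805 to 16081111 in the cold regime and from 10800714 to 14110124 in the moderate regime. Normalized counts were obtained by TMM normalization and expressed for a library of mean size, and the TMM factors lay between 0.904 and 1.03. Euclidean distances between a pool and its regime mean, taken over log2 CPM (counts scaled to a common library total) of all genes tested, were between 31.5 and 35.9 in the warm regime, between 30.1 and 37.7 in the cold regime and between 34.7 and 61.8 in the moderate regime. Moderate replicates 2 and 4 stood apart from their regime, at 61.8 and 60.2. On a line drawn from the mean of the warm pools (0%) to the mean of the cold pools (100%) over all genes tested, moderate replicate 4 lay at 19.7% and the other moderate pools at 93.9%, 111% and 98.2% (replicates 1, 2 and 3). Differences from the moderate regime are therefore given also without moderate replicate 4. Those without moderate replicate 2 are given at the end, with the dependence on the processing.

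Lysophospholipid acyltransferase and phospholipase A2 were both lowest in the warm and highest in the cold regime, and diacylglycerol kinase 1 was highest in the warm and lowest in the cold regime. Between warm and cold the pools did not overlap for any of the 3 genes, and the log2 fold-change was -0.75 (standard error 0.11) for lysophospholipid acyltransferase, -1.94 (0.25) for phospholipase A2 and 1.13 (0.17) for diacylglycerol kinase 1. Among all genes tested, the warm pools lay entirely below the cold pools in 13.8% and entirely above them in 12.7%. In whole-body pools, a lower share of the cells that express a gene and less of its RNA per cell cannot be told apart.

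**Figure D1:**
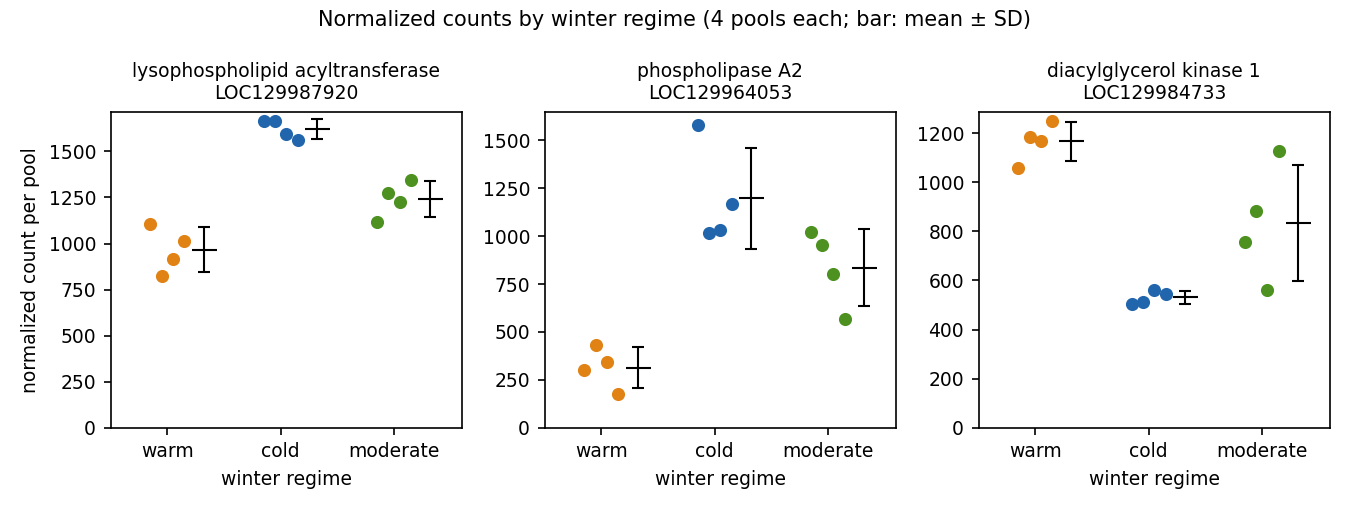
Normalized counts (vertical axis, starting at 0) of the 3 genes in each pool of 15 spiderlings, by winter regime. Points are pools, and the bars beside them are the mean and SD of 4 pools. The cold pools of lysophospholipid acyltransferase lie between 1561 and 1666, above all others, and the warm pools of phospholipase A2 between 176 and 434, below all others.

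Lysophospholipid acyltransferase, the enzyme that re-acylates lysophospholipids, lies on chromosome 10 from 6311991 to 6347226 in the assembly qqArgBrue1.1. Its normalized counts were 1106, 826, 914 and 1016 in warm replicates 1 to 4, 1666, 1665, 1596 and 1561 in cold replicates 1 to 4, and 1117, 1272, 1228 and 1347 in moderate replicates 1 to 4. The regimes therefore ranked in the order cold, moderate and warm, with means of 966 ± 122 in warm, 1622 ± 52.1 in cold and 1241 ± 96.2 in moderate (SD, n = 4 each). Every cold pool lay above every moderate pool, and the lowest cold pool was 214 normalized counts above the highest moderate pool.

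The separation of warm from moderate was much narrower for this gene. The highest warm pool, at 1106, and the lowest moderate pool, at 1117, were 10.4 normalized counts apart, or 0.943% of the lower value, which is less than the counting error of about 2.88% in that warm pool. With upper-quartile normalization these pools overlapped (a gap of -4.77%), and so they did when counts were scaled by library totals alone (-0.99%), settings that were compared after seeing the data. Whether warm and moderate overlap for this gene thus depends on the scaling, and the means differed by -0.36 on the log2 scale (standard error 0.11). Without moderate replicate 4 this difference was -0.32, and that between cold and moderate 0.43 in place of 0.39. In all, 17 of the 14057 genes tested had the 3 regimes fully apart in the order cold over moderate over warm (0.121%), this gene among them under TMM normalization.

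Phospholipase A2, which releases fatty acids from phospholipids, lies on chromosome 3 from 91841210 to 91863774. It had 299, 434, 341 and 176 normalized counts in the warm replicates, 1580, 1014, 1030 and 1170 in the cold replicates, and 1019, 956, 800 and 567 in the moderate replicates. The means were 313 ± 107 in warm, 1199 ± 264 in cold and 836 ± 201 in moderate (SD, n = 4 each). All warm pools lay below all pools of the other regimes, with the highest warm pool at 434 against 567 in the lowest moderate pool. Its level in the warm regime was 3.83-fold lower than in cold and 2.67-fold lower than in moderate, both from the fitted fold-changes. The log2 difference between warm and moderate was -1.42 (standard error 0.25), and without moderate replicate 4 it was -1.57.

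Cold and moderate overlapped for phospholipase A2, if only just, since 1014 in the lowest cold pool faced 1019 in the highest moderate pool. Cold exceeded moderate by 0.52 on the log2 scale (standard error 0.24). Without cold replicate 1, which at 1580 was the highest pool of this gene, it was 0.36, and without moderate replicate 4, which was the lowest moderate pool, it was 0.37. With limma and voom the difference was 0.32. Other settings raised it, to 0.63 without moderate replicate 1 and to 0.56 with the replicate number as a block. Under upper-quartile normalization the pools did not overlap, with a gap of 1.84%. The cold and moderate levels of this gene are accordingly neighbours. Whether their pools overlap depends on the scaling, and the size of their difference on single pools.

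Diacylglycerol kinase 1 lies on chromosome 9 from 15025069 to 15643679 and ran the other way. It was at 1058, 1186, 1170 and 1250 normalized counts in the warm replicates, at 505, 514, 560 and 544 in the cold replicates, and at 758, 883, 563 and 1126 in the moderate replicates. The means were 1166 ± 80.2 in warm, 531 ± 25.8 in cold and 832 ± 236 in moderate (SD, n = 4 each). Within the warm and the cold regime the pools lay close together, and between them the moderate pools took up almost the whole range.

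The lowest warm pool of diacylglycerol kinase 1, at 1058, lay below moderate replicate 4, at 1126, and the highest cold pool, at 560, was 2.44 normalized counts below moderate replicate 3, at 563. Warm therefore overlapped with moderate, and cold was apart from moderate by less than the counting error of a pool. Overlap was absent between all 3 regimes, in the order warm over moderate over cold, in 8 genes (0.0569%), and diacylglycerol kinase 1 was not among them. Warm exceeded moderate by 0.49 on the log2 scale (standard error 0.16), which was 0.67 without moderate replicate 4 and 0.34 without moderate replicate 3. The log2 difference between cold and moderate was -0.65 (standard error 0.17), with -0.47 without moderate replicate 4 and -0.80 without moderate replicate 3.

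**Figure D2:**
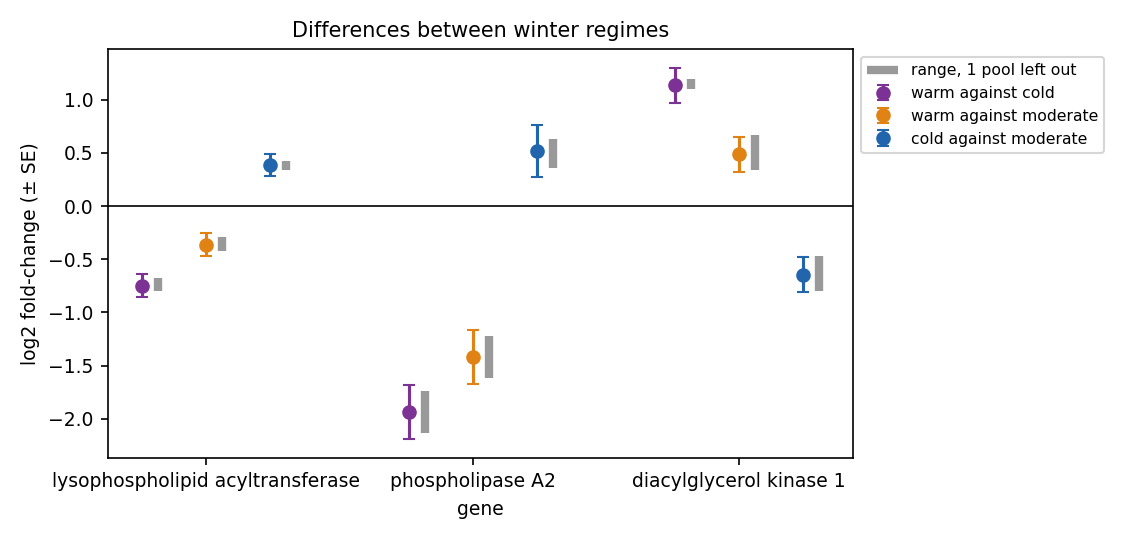
Log2 fold-change with its standard error (vertical axis) for each gene in the 3 comparisons of winter regimes. Grey bars are the range when 1 of the 12 pools is left out, and they cross 0 for none of the genes. Phospholipase A2 has the value farthest from 0, -1.94 in warm against cold.

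The 3 comparisons can be read side by side as a step with the night and a step with the day, and both steps share the moderate pools. Each step also holds the change from the narrower daily swing of moderate to a wider one, so the names of the steps are labels only. For lysophospholipid acyltransferase the steps were of like size, 0.39 (standard error 0.11) for the night and -0.36 for the day, so that 51.7% of the whole difference between warm and cold fell on the night step. With 1 pool left out, a calculation added after seeing the data, this share lay between 45.2% and 57.2%. For phospholipase A2 it was 26.9%, with 73.1% on the day step, and between 19.3% and 32.5% with 1 pool left out. For diacylglycerol kinase 1 the night share was 57.1%, but 41.1% without moderate replicate 4 and 70.2% without moderate replicate 3, so which step was larger for this gene rests on single moderate pools. The departure of the moderate level from the midpoint, measured as the sum of the warm and cold log2 levels less 2 times the moderate level, was 0.02 (standard error 0.18) for lysophospholipid acyltransferase, -0.16 (0.28) for diacylglycerol kinase 1 and -0.90 (0.42) for phospholipase A2. Moderate lay nearer to cold for phospholipase A2. Leaving out moderate replicate 4, its moderate pool nearest to warm, could only widen this departure, to -1.19 (0.41). Without moderate replicate 1, its moderate pool nearest to cold, the departure was -0.68 (0.47). Without moderate replicate 4 the departure was 0.11 (0.19) for lysophospholipid acyltransferase and 0.20 (0.24) for diacylglycerol kinase 1. Without moderate replicate 3 that of diacylglycerol kinase 1 was -0.46 (0.23). The side of the midpoint on which moderate lay for diacylglycerol kinase 1 thus rests on single pools too.

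Relative to other genes the 3 differed in the size of their differences between regimes. In warm against cold, phospholipase A2 ranked 61 of 14057 by the size of its log2 fold-change, diacylglycerol kinase 1 ranked 472 and lysophospholipid acyltransferase 1393. The median log2 fold-change of all genes was -0.01 in this comparison. For warm against moderate the pools of lysophospholipid acyltransferase and phospholipase A2 did not overlap, 2 of the 3 genes, where 5.34% of all genes tested lay entirely lower in warm. Diacylglycerol kinase 1 overlapped there, where 5.29% lay entirely higher. For cold against moderate the pools did not overlap for lysophospholipid acyltransferase, where 3.34% of all genes lay entirely higher in cold, and diacylglycerol kinase 1, where 2.2% lay entirely lower. Without moderate replicate 4, the pools did not overlap between warm and moderate for 3 of 3 genes, where 18.3% of all genes lay entirely higher and 19.5% entirely lower in warm. Between cold and moderate they did not overlap for the same 2 genes as with it, where 9.73% lay entirely higher and 10.4% entirely lower in cold. These shares stand beside genes that were picked for their differences, so nothing follows from the comparison.

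The genes also differed in how steady they were among pools of 1 regime. Counting error alone would give a coefficient of variation between 2.44% and 5.81% in these groups of pools. The pools of the cold regime came near to that for lysophospholipid acyltransferase, with 3.21% against a counting error of 2.44%, and for diacylglycerol kinase 1, with 4.85% against 4.26%. In the moderate regime diacylglycerol kinase 1 varied by 28.3%, which was 7.55 times its counting error, and the highest pool was 2.00 times the lowest. Phospholipase A2 varied by 34.2% in warm, 22.0% in cold and 24.1% in moderate, at least 5.88 times the counting error in each.

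Set against the 500 genes nearest to it in mean level, phospholipase A2 had a larger variation within regimes than 92% of them, at 27.3% compared with a median of 14.8%. Diacylglycerol kinase 1, at 17.1%, was above 67%, and lysophospholipid acyltransferase, at 8.75%, above 18.6%. The acyltransferase was thus the steadiest of the 3 relative to genes of its level, and the phospholipase the least steady.

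Ratios of the raw counts of 2 genes within the same pool do not depend on how libraries are scaled. Their absolute size has no meaning here, since exon lengths were not used, but they can be compared across pools. The ratio of lysophospholipid acyltransferase to diacylglycerol kinase 1 was 1.05, 0.696, 0.782 and 0.812 in the warm replicates, 3.30, 3.24, 2.85 and 2.87 in the cold replicates, and 1.47, 1.44, 2.18 and 1.20 in the moderate replicates. The 3 regimes did not overlap in this ratio. Both ratios to diacylglycerol kinase 1 set against each other genes that differ between warm and cold in opposite directions. The genes were picked for such differences, so the separation of these ratios is partly built in by the choice. How many other pairs of genes have the regimes apart was not counted. Its geometric mean was 3.71-fold lower in warm than in cold, a log2 difference of -1.89 (standard error 0.14), and it was 1.86-fold lower in warm than in moderate and 1.99-fold higher in cold than in moderate. Without moderate replicate 4 the log2 differences from moderate were -1.02 in warm, in place of -0.90, and 0.87 in cold, in place of 0.99.

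The ratio of phospholipase A2 to diacylglycerol kinase 1 spanned the widest range. It lay between 0.141 and 0.366 in warm, between 1.84 and 3.13 in cold and between 0.504 and 1.42 in moderate. Again the regimes did not overlap, which the choice of these genes partly builds in. Warm was 8.70-fold lower than cold, a log2 difference of -3.12 (standard error 0.34). The moderate pool nearest to warm was replicate 4, at 0.504, and without it the log2 difference of warm against moderate was -2.32 in place of -1.98 and that of cold against moderate 0.80 in place of 1.14.

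The ratio of phospholipase A2 to lysophospholipid acyltransferase, the enzymes that take off and put back an acyl chain, behaved otherwise. It was between 0.174 and 0.526 in warm, between 0.609 and 0.948 in cold and between 0.421 and 0.912 in moderate. Warm was 2.35-fold lower than cold without overlap, with a log2 difference of -1.23 (standard error 0.37). Warm and moderate overlapped, with a log2 difference of -1.09 (standard error 0.41) that was -1.30 without moderate replicate 4. Cold and moderate overlapped, with a log2 difference of 0.14 (standard error 0.28), which was -0.072 without moderate replicate 4 and 0.01 without cold replicate 1. The difference between cold and moderate in this ratio was thus smaller than its standard error, and it changed sign without moderate replicate 4.

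**Figure D3:**
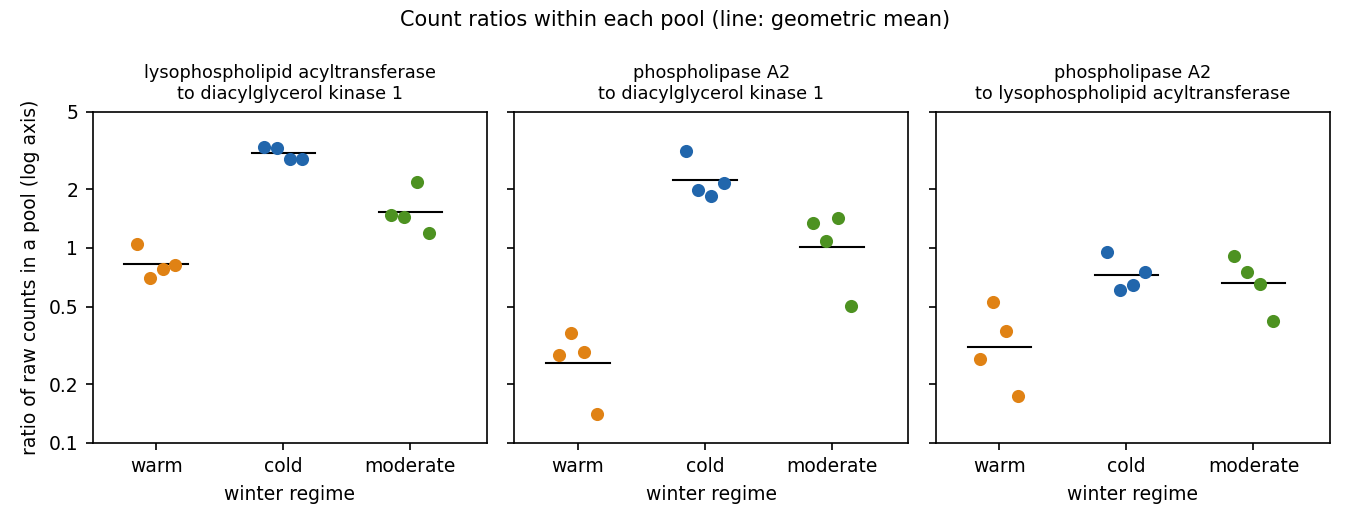
Ratio of raw counts between 2 of the 3 genes in each pool (vertical axis, logarithmic), by winter regime, with lines at the geometric mean of 4 pools. The regimes are apart for both ratios to diacylglycerol kinase 1, between genes picked for opposite differences between warm and cold. For phospholipase A2 to lysophospholipid acyltransferase the moderate pools, at 0.421 to 0.912, overlap with both warm and cold.

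The moderate pools did not take the same place for each gene. Measured on the log2 scale from the warm mean (0%) to the cold mean (100%), moderate replicates 1, 2, 3 and 4 lay at 28.9%, 53.8%, 47.0% and 64.6% for lysophospholipid acyltransferase. For phospholipase A2 they lay at 89.4%, 84.8%, 71.8% and 46.8%, and for diacylglycerol kinase 1 at 54.6%, 35.2%, 92.5% and 4.22%. Moderate replicate 4, which over all genes lay near the warm pools, was thus the moderate pool nearest to warm for phospholipase A2 and diacylglycerol kinase 1 and the one nearest to cold for lysophospholipid acyltransferase. Moderate replicates 1, 2 and 3 lay at 93.9% or more over all genes but at 53.8% or less for lysophospholipid acyltransferase. The part of the pool-wide shift in these values was not tested.

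**Figure D4:**
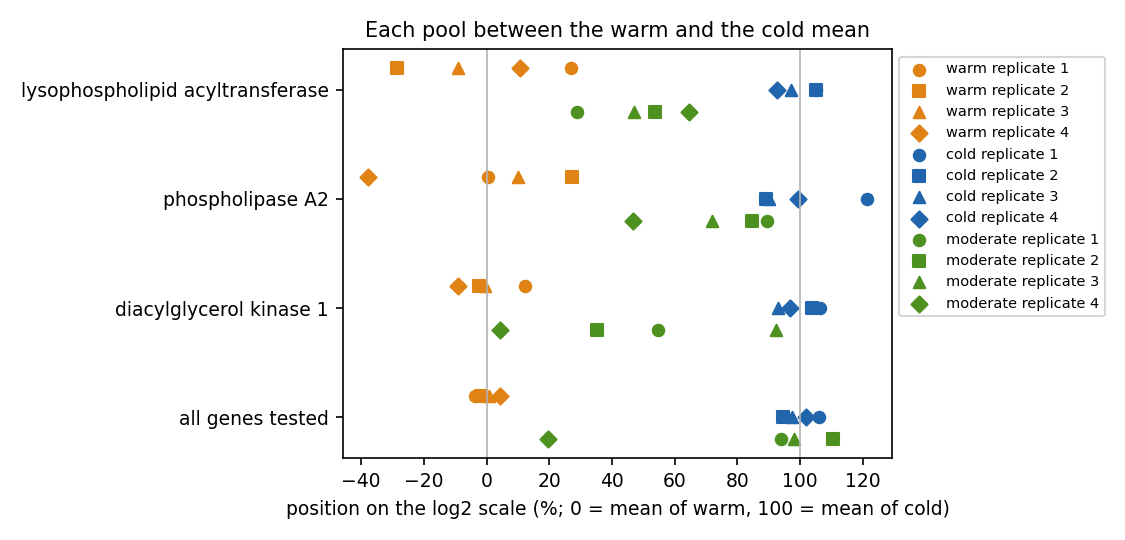
Place of each pool between the mean of the warm pools (0%) and the mean of the cold pools (100%) on the log2 scale (horizontal axis), for the 3 genes and for all genes tested together. Symbols mark the replicate and colours the regime. Over all genes moderate replicate 4 is at 19.7% and the other moderate pools are at 93.9% to 111%, while for the single genes the moderate pools lie between 4.22% and 92.5%.

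The genes whose pattern over all 12 pools was most like that of each of the 3 were sought by the Pearson correlation of log2 CPM. Points of 1 regime share the regime and the cabinet, and values of 1 pool share its library, so the coefficients only rank the genes. For lysophospholipid acyltransferase they were LOC129976206 (0.92), LOC129981079 (0.92) and LOC129969114 (0.90), on chromosomes 7, 8 and 5. These were the only genes at 0.9 or above for this gene. LOC129981079 was at 3432 ± 256 normalized counts in warm, 4860 ± 180 in cold and 4154 ± 68.3 in moderate (SD, n = 4 each). That its regimes rank like those of the acyltransferase follows from its choice by likeness over the same pools.

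Phospholipase A2 was most like LOC129980901 on chromosome 8 (0.93), LOC129960872 on chromosome X2 (0.93) and LOC129963924 on chromosome 3 (0.92), and 12 genes reached 0.9. LOC129960872 was at 2502 ± 277 normalized counts in warm, 6209 ± 149 in cold and 4021 ± 679 in moderate (SD, n = 4 each). Diacylglycerol kinase 1 had the closest company, with 57 genes at 0.9 or above. The nearest were LOC129960455 on chromosome X2 (0.98), LOC129963555 on chromosome 3 (0.97) and the long non-coding RNA gene LOC129960937 on chromosome X2 (0.97).

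These companions of diacylglycerol kinase 1 also varied widely among the moderate pools, by 39.8%, 19.8% and 49.1%. LOC129960455 was at 211, 207, 179.9 and 207 normalized counts in the warm replicates, at 63.2, 74.9, 73.4 and 73.2 in the cold replicates, and at 108, 115, 84.9 and 201 in the moderate replicates. As for the kinase, moderate replicate 3 was the lowest and moderate replicate 4 the highest of its regime, which follows from the choice of these genes by their likeness over the same pools. What these genes encode is not given in the sources used here.

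By position the 3 genes had little in common. They lie on 3 chromosomes, each is annotated as protein-coding with 1 transcript and 1 protein, and none overlaps another annotated gene, so reads of an overlapping gene do not enter their counts. Lysophospholipid acyltransferase spans 35236 bases and phospholipase A2 22565 bases, compared with a median of 18053 for protein-coding genes. Diacylglycerol kinase 1 spans 618611 bases, longer than all but 0.354% of protein-coding genes. Related copies elsewhere in the genome could not be looked for, so the counts may hold reads that also fit a near-identical gene.

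The nearest 3 genes with a LOC identifier on each side of each gene, by start position, were tested in the same fit as all other genes. This choice was made after seeing the files. Of these 18 neighbours 14 passed the filter. In warm against cold their log2 fold-changes ran from -0.43 to 0.89 with a median of -0.12, and 0 were called by the quasi-likelihood test of edgeR at a Benjamini-Hochberg adjusted p under 0.05, where 5.47% of all genes tested were called (2.7% higher and 2.77% lower in warm). At an unadjusted p under 0.05 there were 4 of 14, where 25.4% of all genes were. DESeq2 called 1 neighbour (12.2% of all genes) and limma with voom 5 (26.5%). Without moderate replicate 4, edgeR called 2 (15.8% of all genes).

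The neighbours closest to phospholipase A2 that could be tested, LOC129963114 before it and LOC129963308 after it, had log2 fold-changes of -0.03 (standard error 0.09) and -0.21 (standard error 0.16) in warm against cold. Next to lysophospholipid acyltransferase, LOC129987750 before it had 0.13 (standard error 0.12) and LOC129989095 after it 0.40 (standard error 0.23). On either side of diacylglycerol kinase 1, LOC129984343 had -0.19 (standard error 0.16) and LOC129984805 0.66 (standard error 0.36). The 3 named genes lay outside these values of their neighbours, which follows from their having been picked for such differences.

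**Figure D5:**
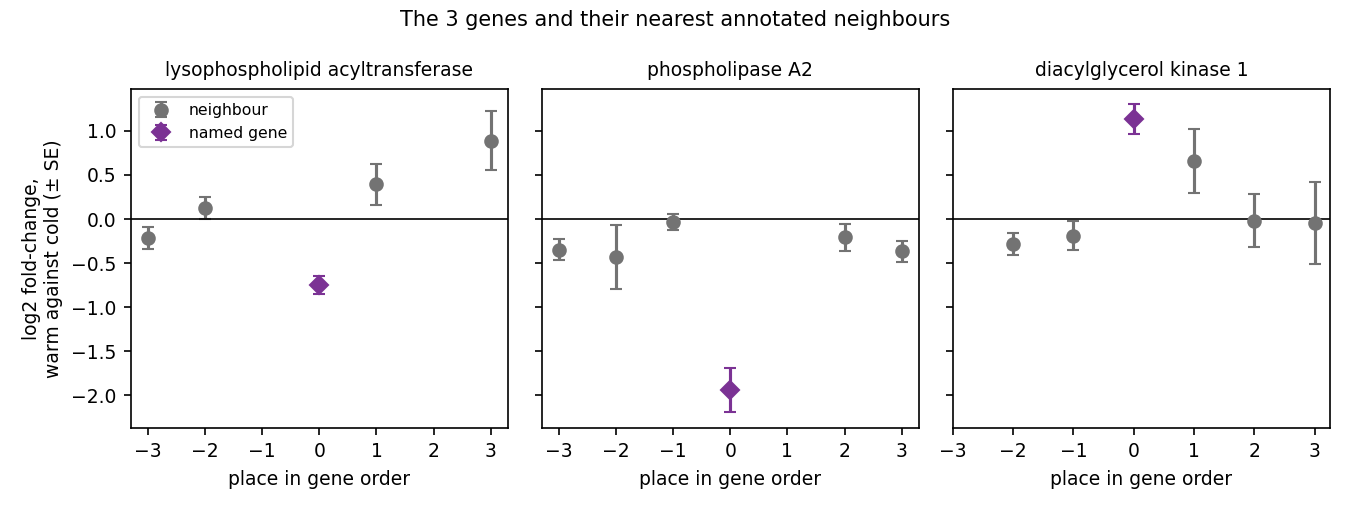
Log2 fold-change of warm against cold with its standard error (vertical axis) for the 3 named genes (diamonds, place 0) and their tested neighbours in gene order (grey points, places -3 to 3; neighbours under the count filter are left out). The neighbours lie between -0.43 and 0.89, and phospholipase A2, picked for its difference, at -1.94.

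In warm against moderate 0 of the 14 neighbours were called by edgeR's test, where 4.08% of all genes were (1.37% higher and 2.71% lower in warm), with 5 at an unadjusted p under 0.05 (29.6% of all genes). The uneven split over all genes was not seen with upper-quartile normalization, which called 46 genes higher and 49 lower in warm. It was seen with DESeq2, 882 higher and 1327 lower, and with the size factors of DESeq2 in edgeR, 155 and 306. With limma the split was 2493 and 2603. DESeq2 called 4 neighbours (15.7% of all genes), limma 7 (36.3%) and edgeR without moderate replicate 4 also 7 (31.2%). In cold against moderate 0 were called by edgeR, where 0.0142% of all genes were (0.00711% higher and 0.00711% lower in cold), with 2 at an unadjusted p under 0.05 (12% of all genes). DESeq2 called 0 (1.32% of all genes), limma 1 (5.72%) and edgeR without moderate replicate 4 called 2 (4.58%). The counts among neighbours are small. Those over all genes moved as well, with the tool and with the pool left out, moderate replicate 4 or another. The calls therefore give no result particular to the neighbours.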

How the data were processed

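The authors depleted ribosomal RNA, made directional paired-end libraries, mapped the reads with STAR 2.7.11a and counted them per gene with featureCounts of Subread 2.0.6. What the authors deposited is a table of raw counts, 1 value per gene and pool. How strand and multi-mapping reads were counted is not given in the sources used here.

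Groups and replicate numbers came from the sample titles. All 12 columns were used and 0 were left out, and 2 genes without values were dropped. Counts per pool summed to between 10800714 and 16081111. In R 4.3.3, counts were filtered with filterByExpr (minimum count 10), normalized by TMM and fitted in edgeR 4.0.16 (glmQLFit, glmQLFTest) in 1 model of all pools with regime as factor. P-values were adjusted over all genes by Benjamini and Hochberg, with a threshold of 0.05. Standard errors were derived from the F statistic. Correlations used log2 CPM with a prior count of 2. The tests were run beforehand on simulated counts. These were drawn for each gene on its own, without a shift shared across a pool, so behaviour under such shifts was not checked.

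The 3 genes and all rules were chosen with earlier results of these data known. Named are these genes, the 3 genes most like each in pattern, and neighbours chosen after seeing the files. Positions are from RefSeq's table for qqArgBrue1.1, which matched all 20593 LOC identifiers but holds no product names or sequences. The planned list of phospholipid genes, the protein relatives and the body markers could therefore not be built. Alternatives were other scalings and filters, DESeq2 1.42.0, limma 3.58.1 (voom with weights per sample), the regimes compared alone, the replicate number as a block, and each pool left out.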

Additional observations from a re-analysis of the deposited data

Results flagged for a closer look

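In groups of 4 pools, the highest or lowest value was set against the range of its group for the 3 named genes and the 9 genes most like them, 36 groups in all. None of the 9 groups of the named genes held a pool far from the others, the nearest being cold replicate 1 of phospholipase A2, whose gap of 0.725 of the range was under Dixon's critical value. Among the similar genes 4 groups did. The critical value is set for about 1 in 20 groups of independent values. These genes were picked for their likeness over the same pools, so their number cannot be set against that rate. LOC129976206 was at 5.77 normalized counts in warm replicate 2, against 17.5 to 18.8 in the other warm pools, from few counts (6 to 20 per pool). LOC129963924 was at 309 in moderate replicate 4, against 380 to 390 in the other moderate pools. LOC129960455 was at 179.9 in warm replicate 3, against 207 to 211, and at 63.2 in cold replicate 1, against 73.2 to 74.9.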

How the results depend on the processing

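The log2 fold-changes of the 3 genes kept their sign in all 72 values under alternatives other than leaving out a pool and in all 108 values with 1 of the 12 pools left out. Of the 72, 71 moved by less than 1 SD between pools. The exception was lysophospholipid acyltransferase in cold against moderate, at 0.48 under limma with voom. Phospholipase A2 in the same comparison was at 0.32 under that method, against 0.52.

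With 1 pool left out, lysophospholipid acyltransferase ranged from -0.80 to -0.68 in warm against cold, from -0.42 to -0.29 in warm against moderate and from 0.34 to 0.43 in cold against moderate. Phospholipase A2 ranged from -2.14 to -1.74, from -1.62 to -1.22 and from 0.36 to 0.63 in these comparisons. Diacylglycerol kinase 1 ranged from 1.10 to 1.20, from 0.34 to 0.67 and from -0.80 to -0.47. Without moderate replicate 2, warm against moderate was -0.35 for lysophospholipid acyltransferase, -1.35 for phospholipase A2 and 0.52 for diacylglycerol kinase 1. Cold against moderate was then 0.40, 0.59 and -0.62 in the same order of genes. The count ratio of phospholipase A2 to lysophospholipid acyltransferase in cold against moderate changed sign without moderate replicate 4, and with a pool left out it ranged from -0.072 to 0.30 on the log2 scale. Chosen after seeing the data, the gap between facing pools changed sign for lysophospholipid acyltransferase in warm against moderate, to -4.77% under upper-quartile normalization and -0.99% with totals only, and for phospholipase A2 in cold against moderate, to 1.84% under upper-quartile normalization, where the pools no longer overlapped.

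The number of genes called over the whole table moved more. In warm against cold it was 769, and 1715 with DESeq2, 3727 with limma and 3272 with only these regimes fitted, and it lay between 115 (without cold replicate 4) and 2237 (without moderate replicate 4) with a pool left out. Without moderate replicate 2 it was 1865. In warm against moderate it was 573, and 95 with upper-quartile normalization, 2209 with DESeq2, 5096 with limma and 0 with only these regimes fitted by edgeR (3234 at an unadjusted p under 0.05), and between 0 and 4419 with a pool left out, the highest without moderate replicate 4. Its split was 192 higher and 381 lower in warm, 46 and 49 with upper-quartile normalization and 2052 and 2367 without moderate replicate 4. With DESeq2 it was 882 and 1327, and with limma 2493 and 2603. In cold against moderate it was 2, and 5 both with upper-quartile normalization and with no filter, 186 with DESeq2, 804 with limma and 0 with only these regimes fitted by edgeR (1228 at an unadjusted p under 0.05), and between 0 and 650 with a pool left out. The split of the 769 calls was 380 higher and 389 lower in warm, and 435 and 304 under upper-quartile normalization. The causes were not tested.

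Whether pools with the same replicate number share more than that number is not given in the sources used here. Deviations from the regime means correlated between -0.07 and 0.12 in same-numbered pairs, and 3 of 12 pools correlated best with their own number in both other regimes. With the replicate block in edgeR, the calls were 472 in warm against cold, 14 in warm against moderate and 0 in cold against moderate (1611 at an unadjusted p under 0.05). The count of called genes in the phospholipid list was not run, since no product names were at hand. Each count of the 3 genes was at least 188, and the gaps of lysophospholipid acyltransferase between warm and moderate and of diacylglycerol kinase 1 between cold and moderate were below the counting error of a pool.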
